A study of Mus musculus with 8 samples.

Results

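RXR regions were examined at 9 mouse genes that make fatty acids or set the level of malonyl-CoA: Acly, Me1, Acaca, Acacb, Mlycd, Fasn, Srebf1, Mlxipl and Thrsp. A peak belonged to a gene when its summit lay inside the gene or within 50 kb of it, by RefSeq gene positions on the mouse build mm10. This gave 65 of the 23961 peaks in the deposited lists. ChIP-seq, which sequences the DNA that an antibody pulls down with its protein, gave the RXR peaks of total hearts at postnatal day 0. The edKO hearts lack Rxra and Rxrb in cardiomyocytes and the other hearts are wild type (WT), with 2 individual hearts of each genotype, numbered 3 and 4. All hearts were fixed with DSG and FA, and each was sequenced as an RXR pull-down and as input. The sources used here do not name the driver of the cardiomyocyte deletion, and heart cells other than cardiomyocytes are not described as deleted.

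The retinoid X receptors are nuclear receptors that bind DNA together with a partner, such as the liver X receptors (LXR), which respond to oxysterols, the peroxisome proliferator-activated receptors, or the thyroid hormone receptors. Fatty acid synthesis starts from citrate, which Acly cleaves to acetyl-CoA in the cytosol. Acetyl-CoA carboxylases turn acetyl-CoA into malonyl-CoA, and Fasn builds palmitate from it with NADPH, part of which comes from Me1. In heart muscle malonyl-CoA is known chiefly as the inhibitor of fatty acid entry into mitochondria, so that Acacb, which makes it, and Mlycd, which removes it, act on fatty acid burning. Srebf1 and Mlxipl encode transcription factors of lipogenic genes, and the mouse Srebf1 and Fasn promoters are known to hold LXR response elements.

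At Fasn, Srebf1, Me1 and Mlycd the summits of both WT hearts lay within 250 bases upstream of an annotated start, in 4 of the 13 RefSeq promoter windows of the 9 genes. The windows of 300 bases run from 250 before to 50 after a start. Counted by gene, 4 of the 9 had a summit of a shared WT region in such a window, beside 4.81% of the 17492 protein-coding genes that have a window. The 250 upstream bases (RefSeq, GRCm38.p6) are shown 5′ to 3′ on the strand of each gene because they hold the summits. They come from chr11:120824548-120824797 for Fasn, chr11:60210472-60210721 for Srebf1 and chr9:86695915-86696164 for Me1, all on the minus strand, and chr8:119394644-119394893 for Mlycd on the plus strand. Capitals mark the receptor hexamers on either strand, which are AGGTCA, the variant GGGTCA, the variant AGTTCA and the variant GGTTCA, and the repeat GGGTTANNNNCGGTCA, which was read from the first 2 of these promoters and then searched on both strands of all windows.
Fasn: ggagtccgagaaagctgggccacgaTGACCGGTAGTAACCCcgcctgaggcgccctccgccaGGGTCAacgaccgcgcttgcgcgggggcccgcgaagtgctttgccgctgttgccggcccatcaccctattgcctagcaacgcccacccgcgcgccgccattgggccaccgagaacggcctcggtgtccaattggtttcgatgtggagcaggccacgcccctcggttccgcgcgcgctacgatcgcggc
Srebf1: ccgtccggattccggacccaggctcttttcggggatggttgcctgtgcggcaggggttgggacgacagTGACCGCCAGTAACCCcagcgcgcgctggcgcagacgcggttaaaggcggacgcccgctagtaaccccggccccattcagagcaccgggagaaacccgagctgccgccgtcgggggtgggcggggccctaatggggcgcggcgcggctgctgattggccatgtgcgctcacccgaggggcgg
Me1: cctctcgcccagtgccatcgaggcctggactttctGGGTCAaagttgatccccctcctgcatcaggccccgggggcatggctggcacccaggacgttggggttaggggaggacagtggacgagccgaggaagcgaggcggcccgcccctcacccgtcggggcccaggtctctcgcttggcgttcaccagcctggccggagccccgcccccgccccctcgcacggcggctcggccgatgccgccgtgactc
Mlycd: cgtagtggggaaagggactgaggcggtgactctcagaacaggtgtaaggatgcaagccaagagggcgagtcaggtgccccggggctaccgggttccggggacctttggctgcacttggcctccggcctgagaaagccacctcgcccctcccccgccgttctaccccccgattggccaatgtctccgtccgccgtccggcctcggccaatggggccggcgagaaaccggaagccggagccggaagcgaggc

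The repeat has a spacer of 4 bases and was found in 3 of 21263 promoter windows of protein-coding genes (0.0141%), those of Fasn, Srebf1 and Abca1, the cholesterol exporter gene. Its presence at Fasn and Srebf1, and its place under WT peaks there, follow from how it was chosen. The Abca1 match was not used in that choice, but it is a single window and no conclusion is drawn from it. Of the 896 windows that hold a shared WT summit, 2 held the repeat (0.223%, Clopper-Pearson interval 0.027 to 0.804%). These were the Fasn and Srebf1 windows, so that share is built in. Whether windows under a peak of both WT hearts hold the repeat more often than other windows was not tested. Each match lay under a peak of both WT hearts and read along the plus strand, so that the Fasn and Srebf1 lines above, on the minus strand, carry its reverse complement. The Fasn repeat, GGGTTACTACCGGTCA, lay at chr11:120824757-120824772 on the plus strand. The edKO replicate 3 summit fell inside it, and the summits of WT replicates 3 and 4 fell 6 and 33 bp outside it. The Srebf1 repeat, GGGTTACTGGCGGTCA, lay at chr11:60210638-60210653, with the WT replicate 3 summit inside it and the WT replicate 4 summit 4 bp outside it. The Abca1 repeat, with the same letters as that of Fasn, lay at chr4:53159947-53159962. Its peak had a fold enrichment of 7.37 in edKO replicate 4, against 27.3 and 22.5 in WT replicates 3 and 4, with summits 59, 18 and 12 bp outside the repeat, and edKO replicate 3 had no peak there. The WT replicate 4 peak at Abca1 also spanned a stronger WT replicate 3 peak outside the window, which gave that shared region its summit.

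**Figure D1:**
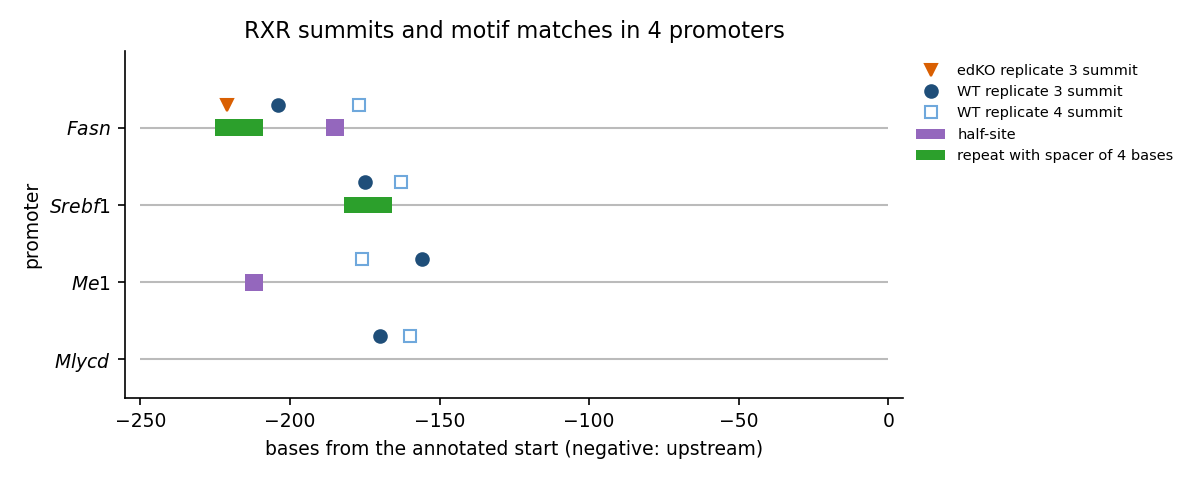
Positions of RXR summits (symbols, 1 per heart with a peak) and motif matches (bars) in the 250 bases upstream of an annotated start of Fasn, Srebf1, Me1 and Mlycd, in bases from the start. The edKO replicate 3 summit at Fasn lies at -221, within the repeat, and all WT summits lie between -204 and -156.

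The single hexamers were common. At least 1 of the 4 stood in 41.2% of the 21263 windows and in 54.0% of the 896 windows that hold a shared WT summit (95% Clopper-Pearson interval 50.7 to 57.3%). Among the 4 windows shown, Fasn and Me1 held GGGTCA, with its centre 18 and 8 bp from the WT replicate 3 and 4 summits at Fasn and 56 and 36 bp from them at Me1. Direct repeats of these hexamers with spacers of 0 to 5 bases were in none of the 13 windows. With a spacer of 1 base they were in 0.183% of all windows and in 7 of the 896 with a shared summit (0.781%, 0.315 to 1.6%). With spacers of 0 and 3 bases they were in 0.179% and 0.0376% of all windows and in 0 of those 896. Spacers of 2, 4 and 5 bases were each in 1 of the 896 (0.112%), beside 0.0894%, 0.0423% and 0.08% of all windows. The E-box CACGTG, in 7.84% of all windows, and the sterol element TCACNCCAC, in 1.19%, were each in 1 window of Mlxipl, neither with a summit. The upstream bases were 67.6 to 72.0% G and C, against a median of 55.6% over all windows and 64.8% over those with a shared summit. Mlycd had none of these letters in its window, which says nothing on other letters or on bases outside it.

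The genotypes were compared to ask how many RXR peaks at these genes remained without Rxra and Rxrb in cardiomyocytes. The edKO hearts had 1 peak in replicate 3 and 0 in replicate 4, against 46 and 18 peaks in WT replicates 3 and 4. The single edKO peak lay at Fasn, and the other 8 genes had no edKO peak but at least 1 in each WT heart. The mean was 0.5 ± 0.707 peaks in edKO hearts and 32.0 ± 19.8 in WT hearts (SD, n = 2 each), a difference of -31.5 peaks (two-sided exact permutation test, p = 0.333, the smallest p that 2 hearts against 2 allow). The numbers did not overlap between genotypes, and neither did those of the whole lists given below, so this is not particular to these genes. The WT hearts differed from each other more than the weaker of them differed from edKO hearts. Peak numbers of whole hearts cannot tell apart a lower share of cells with bound RXR, less RXR bound per cell, and differences in pull-down or sequencing depth. None of these was tested.

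**Figure D2:**
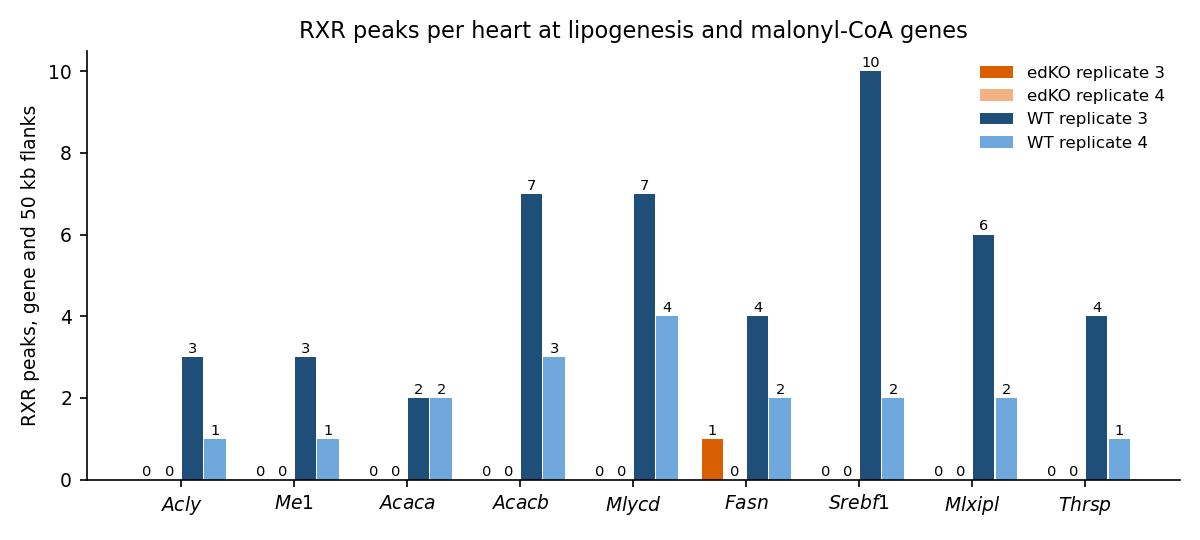
RXR peaks (vertical axis, number of peaks with the summit in the gene or its 50 kb flanks) for each of the 9 genes in each heart. WT replicate 3 has 2 to 10 peaks per gene and WT replicate 4 has 1 to 4, while Fasn is the only gene with a peak in an edKO heart.

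The whole lists hold 8 and 127 peaks in edKO replicates 3 and 4 and 19129 and 4697 in WT replicates 3 and 4. Among all 21887 protein-coding genes, 0.119% and 1.52% had a peak of edKO replicate 3 and 4 inside or within 50 kb, against 64.5% and 33.5% for WT replicates 3 and 4. Of the 9 genes, 1 and 0 had such a peak in the edKO hearts, against 9 and 9 in the WT hearts. Within 10 kb the counts were 1 and 0 in edKO replicates 3 and 4 (0.0548% and 0.69% of all genes), against 8 and 8 in WT replicates 3 and 4 (46.2% and 18.2%). Within 1000 bp they were again 1 and 0 (0.0228% and 0.466% of all genes), against 8 and 8 (37.7% and 13.7%). The lowest number of fragments at a called summit, recovered from the deposited fold enrichment and p, was 24 and 17 in edKO replicates 3 and 4, and 11 and 12 in WT replicates 3 and 4. The lowest called fold enrichments were 3.97 and 3.08 in edKO replicates 3 and 4 and 2.36 and 2.77 in WT replicates 3 and 4. A call rests on the fragments and the local background together, and the lists give no values for regions that were not called. A region without a peak was therefore not called in that heart, which does not show that RXR was absent. The files hold no transcript or protein values, so they hold no measure of the Rxra and Rxrb deletion itself.

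A region was called shared where a WT replicate 4 peak overlapped a WT replicate 3 peak by at least 1 bp. All 18 WT replicate 4 peaks at the 9 genes did so (95% Clopper-Pearson interval 81.5 to 100%), against 94.4% of all peaks of that heart. They formed 18 shared regions, at least 1 at each of the 9 genes, while 32.4% of all protein-coding genes had a shared region inside or within 50 kb. With a distance of 10 kb, 8 of the 9 genes had a shared region (17.5% of all genes), and with 1000 bp the same 8 did (13.1% of all genes). Acly was the gene left out. In 11 of the 18 regions the gene itself was the nearest protein-coding gene, and in 5 the WT replicate 3 summit lay within 500 bp of the gene's 5′ end. The 9 genes with their flanks held 29.3 WT replicate 3 peaks per Mb, against 7.36 per Mb over the annotated span of the chromosomes, a ratio of 3.99. For WT replicate 4 the values were 11.5 and 1.81 per Mb, a ratio of 6.35. The span was not matched on gene density.

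Of the 18 shared regions, 17 had no edKO peak, beside 97.0% of all 4342 shared WT regions. For edKO replicate 3 the count was 17 of 18 (99.8% of all regions) and for edKO replicate 4 it was 18 of 18 (97.1%). These shares lie near those of all regions. The summits of these regions held 27 to 180 fragments in WT replicate 3 and 20 to 112 in WT replicate 4. In WT replicate 4 all 18 reached the 17 fragments of the weakest edKO replicate 4 peak, and 12 reached the 24 of the weakest edKO replicate 3 peak. These numbers were not adjusted for sequencing depth or local background. They therefore do not show which regions would have been called in an edKO heart.

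Fasn, which encodes the multi-enzyme synthase of palmitate, had the strongest of these regions, on chromosome 11 from 120824019 to 120825234. Fold enrichment is the authors' ratio of scaled fragments at the summit to the local background, taken here with 1 added to both. At this Fasn region it was 7.33 in edKO replicate 3, against 41.8 in WT replicate 3 and 28.8 in WT replicate 4. In fragments this was 33 over a background of 3.6 in edKO replicate 3, against 180 over 3.33 in WT replicate 3 and 112 over 2.80 in WT replicate 4. The region thus stood above its background in 3 hearts, lowest in the edKO heart, and edKO replicate 4 had no peak there. The peaks were called in each heart separately, so values of different hearts are set side by side only as a description. Within its own list this peak ranked 2 of 8 in edKO replicate 3, 34 of 19129 in WT replicate 3 and 27 of 4697 in WT replicate 4. The edKO peak was 277 bp wide with its summit 17 and 44 bp from the WT replicate 3 and 4 summits. All 8 edKO replicate 3 peaks lay in shared WT regions, 4 of which also had a peak in edKO replicate 4, and the Fasn region was not among those 4. By the mean over both WT hearts, 35.3 ± 9.24 (SD, n = 2), it ranked 28 of the 4342 shared regions.

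The WT summits of this region lay inside Fasn, 415 and 442 bp from the outer 5′ end of the gene and upstream of its annotated start in the promoter table. A second shared region lay 5481 bp beyond the 3′ end of Fasn, nearer to its neighbour Dus1l at 4050 bp, with fold enrichments of 12.1 and 9.19 in WT replicates 3 and 4. WT replicate 3 had 2 further peaks, at 5.56 inside Fasn and at 4.90 near Dus1l.

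Among the genes of precursor supply, Acly and Me1 differed in where RXR lay. Acly encodes ATP citrate lyase and spans 51.6 kb of chromosome 11, and no list had a peak inside it or within 10 kb of it. The nearest was a WT replicate 3 peak 17591 bp upstream, with a fold enrichment of 4.27 and with Ttc25 as its nearest gene. Its single shared region, from 100428519 to 100429008, had its summit 47636 bp beyond the 3′ end, inside Nt5c3b. That region had fold enrichments of 24.7 and 8.32 in WT replicates 3 and 4, so the shared region counted for Acly stands at another gene. It lay close to the 50 kb limit: the next WT replicate 3 peak, 50172 bp from Acly with a fold enrichment of 11.7, and the next WT replicate 4 peak, 50201 bp from it at 5.33, were left out. The WT replicate 3 peak farthest inside the limit, 49087 bp from Srebf1, had 6.89.

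Me1 encodes the cytosolic malic enzyme, which yields NADPH. Its shared region, on chromosome 9 from 86695879 to 86696270, lay at the promoter, with WT summits 156 and 176 bp upstream of the 5′ end. The fold enrichments of WT replicates 3 and 4 were 14.6 and 8.17, from 50 and 27 fragments. Its rank was 1060 and 1050 in the lists of WT replicates 3 and 4. WT replicate 3 had 2 more peaks inside the gene, at 7.75 and 3.38.

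Acaca and Acacb encode the acetyl-CoA carboxylases, of which the Acaca enzyme serves fatty acid synthesis in the cytosol and the Acacb enzyme sits at the mitochondrial outer membrane. At Acaca both WT hearts had 2 peaks and shared both. The weaker region lay at the 5′ end of the gene, on chromosome 11 from 84129304 to 84129676, with summits 152 and 173 bp upstream. Its fold enrichments were close in the hearts, 10.3 in WT replicate 3 and 9.42 in WT replicate 4, and its summit also lay inside the neighbouring Tada2a, a coactivator complex gene. The stronger region lay inside Acaca from 84179349 to 84180297, with its summit 49971 bp from the 5′ end. It had fold enrichments of 32.1 and 19.2 in WT replicates 3 and 4, from 111 and 65 fragments, and ranked 91 of all shared regions. The annotated start of Acaca in the promoter table lies farther downstream, and neither region reached that window.

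Acacb had 7 peaks in WT replicate 3 and 3 in WT replicate 4, with 3 shared regions. The strongest, on chromosome 5 from 114145739 to 114146871, had its summits 165 and 166 bp upstream of the 5′ end, only 1 bp apart. Its fold enrichments in WT replicates 3 and 4 were 30.4 and 9.84, a ratio of 3.09 and the widest among the 18 regions. The fragments differed less, 105 against 60, while the local background was 2.48 and 5 fragments. A second shared region, 14574 bp upstream and inside Ung, had 13.5 and 10.8, and the remaining one, 29431 bp into the gene, had 7.88 and 6.38. The promoter window of Acacb in the RefSeq table belongs to a start inside the gene and held no summit.

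Mlycd encodes malonyl-CoA decarboxylase, which removes malonyl-CoA, and it had 7 peaks in WT replicate 3 and 4 in WT replicate 4. All 4 WT replicate 4 peaks were shared. The region at its start, on chromosome 8 from 119394355 to 119395367, had fold enrichments of 30.8 and 11.3 in WT replicates 3 and 4, from 121 and 69 fragments over local backgrounds of 2.96 and 5. The summits lay 128 and 118 bp upstream of the 5′ end of the gene. A second region 4550 bp into the gene had 14.1 and 6.12. The remaining regions lay beyond the 3′ end, towards and inside Osgin1, a stress-response gene, with 6.57 and 6.13 at the nearer and 8.90 and 6.13 at the farther one. Acacb and Mlycd, which act on malonyl-CoA in opposite directions, thus both carried a region with its summits just upstream of the 5′ end. Me1 and the weaker Acaca region had such summits too, so this was not particular to that pair. Neither Acacb nor Mlycd had an edKO peak, and 97.0% of all shared WT regions had none.

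**Figure D3:**
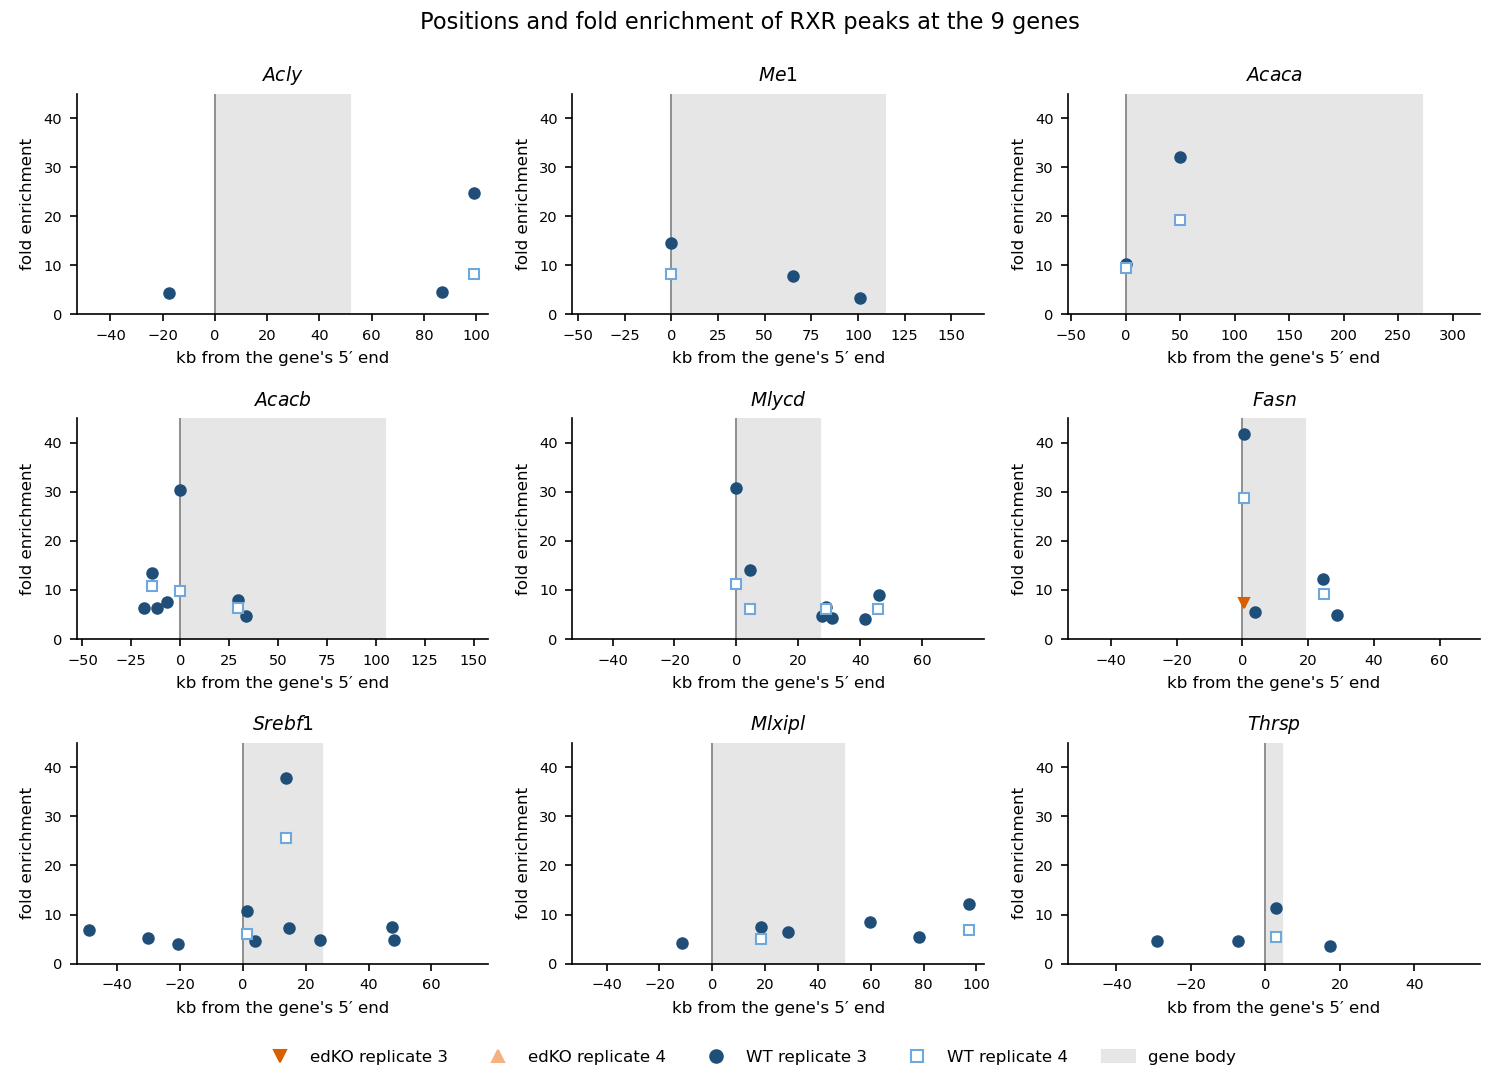
Each panel shows the RXR peaks of 1 gene by distance from its 5′ end (kb, positive towards the 3′ end; grey, gene body; panels differ in horizontal scale) and fold enrichment (ratio). Summits at Fasn, Me1, Acaca, Acacb and Mlycd stand at the 5′ end, the strongest Acaca region lies 49971 bp inside the gene, Acly has no peak in the gene body, and edKO replicate 4 has no peak in any panel.

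Among the regulators, Srebf1, which encodes the sterol-regulated factor SREBP1, had 10 peaks in WT replicate 3 and 2 in WT replicate 4. Its strongest region, on chromosome 11 from 60210268 to 60211025, had fold enrichments of 37.9 and 25.7 in WT replicates 3 and 4, from 131 and 87 fragments. It ranked 43 of all shared regions, after Fasn among the 9 genes. The summits lay 13540 and 13552 bp from the outer 5′ end, at the internal start whose promoter is shown above. The other shared region, 1203 bp into the gene near its outer start, had 10.6 and 6.12. The 8 WT replicate 3 peaks outside these regions had fold enrichments of 3.91 to 7.46.

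Mlxipl encodes the carbohydrate-responsive factor ChREBP. Its strongest shared region, from 135186692 to 135187630 on chromosome 5, lay 47223 bp outside the gene and 332 bp from Baz1b, a chromatin remodeller gene, with 12.1 and 6.82 in WT replicates 3 and 4. Within Mlxipl the shared region, from 135108353 to 135108637, was the weakest of the 18 by the mean of both hearts, with 7.42 in WT replicate 3 and 5.06 in WT replicate 4, from 27 and 22 fragments. It lay 18626 bp from the outer 5′ end. Thrsp, the thyroid hormone-responsive Spot14 gene linked to lipogenesis, had 1 shared region inside its 4.6 kb, on chromosome 7 from 97414478 to 97414880. That region had 11.4 and 5.33 in WT replicates 3 and 4, from 44 and 21 fragments, with summits 3 bp apart and 2921 and 2924 bp from the 5′ end, outside the promoter window.

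Across the 18 shared regions the median fold enrichment was 12.8 in WT replicate 3 and 8.25 in WT replicate 4, beside 9.47 and 6.13 over all 4342 shared regions. The value was higher in WT replicate 3 in 18 of the 18 regions, and in 3591 of all 4342. The ratio of WT replicate 3 to WT replicate 4 had a median of 1.57 at the 9 genes, from 1.07 to 3.09, and a median of 1.49 over all shared regions. Summits of the hearts lay a median of 29.5 bp apart, from 1 to 135 bp, against a median of 36.0 bp over all shared regions. The ranking by mean placed the regions of Fasn, Srebf1, Acaca, Mlycd and Acacb first, with means of 35.3, 31.8, 25.7, 21.1 and 20.1. Each WT heart alone gave these 5 regions in the same order among themselves. In WT replicate 4, however, the Acacb region inside Ung, at 10.8, stood above the last of the 5, at 9.84. The SD over the 2 hearts was 8.65 to 14.6 for these 5 regions, more than any difference between neighbouring means. It includes the higher values of WT replicate 3 throughout. The order was not tested.

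**Figure D4:**
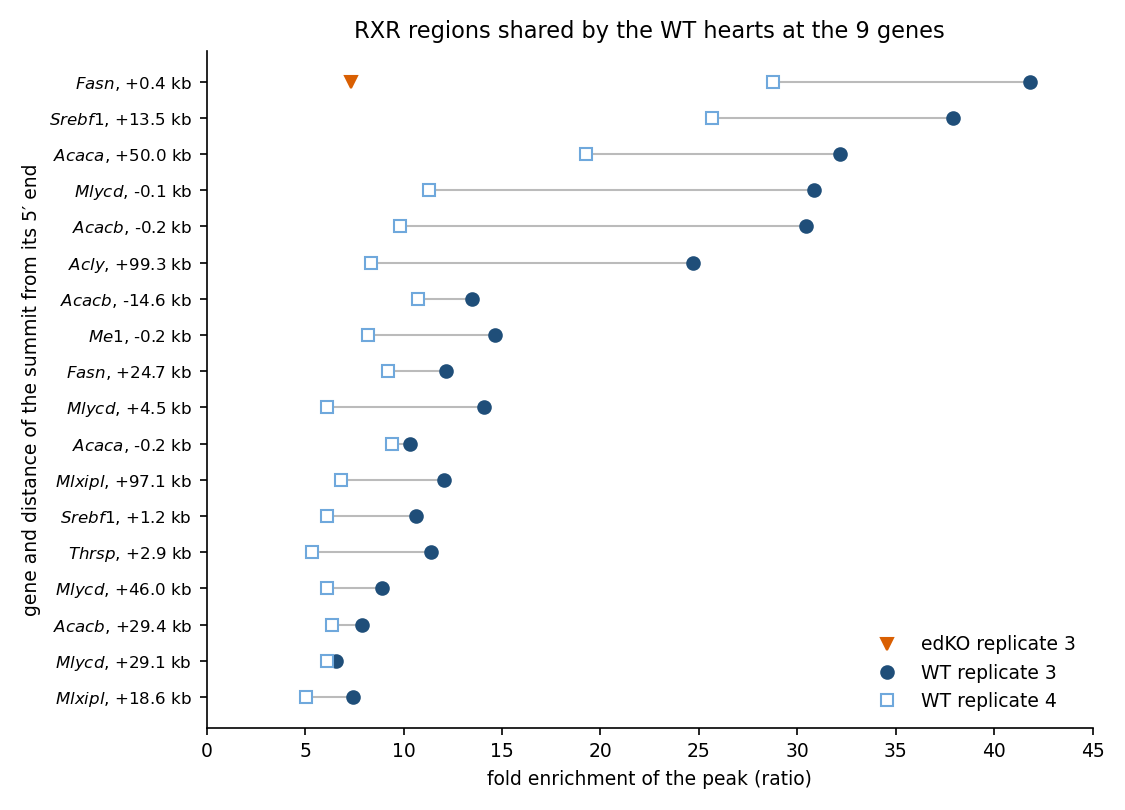
Fold enrichment (ratio, horizontal axis) of the 18 regions shared by the WT hearts, ordered by their mean and named by gene and distance of the WT replicate 3 summit from its 5′ end. WT replicate 3 lies to the right of WT replicate 4 in each region, and the edKO replicate 3 peak at Fasn, at 7.33, lies left of both.

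The other 28 WT replicate 3 peaks at the 9 genes lay in no shared region and were weaker by the median. Their fold enrichments had a median of 4.83 and reached from 3.38 to 8.48, from 13 to 35 fragments. The 18 in shared regions had a median of 12.8 and a lowest value of 6.57, so the ranges overlapped. The 14787 WT replicate 3 peaks that were not the partner in a shared region had a median of 5.17. The highest at the 9 genes, 8.48, lay 9861 bp beyond Mlxipl, inside the neighbouring Tbl2.

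Other genes of the pathway were described from a list of 43 that act before, beside or after these enzymes, including desaturases, elongases, the AMP-activated kinase and the mitochondrial carnitine palmitoyltransferases that malonyl-CoA inhibits. Of the 43 genes, 21 had a shared region inside or within 50 kb, beside 32.4% of all genes, and 37 had a WT replicate 3 peak, beside 64.5%. An edKO peak was within 50 kb of 5 of them, Cpt1a, Cpt1b, Elovl5, Scd1 and Scd2, and of 1 of the 9 genes, Fasn, beside 1.56% of all genes. The region of highest mean fold enrichment was near Elovl5, an elongase gene, with 65.0 and 51.0 in WT replicates 3 and 4. It was followed by those near the desaturase genes Scd2 (59.99 and 40.2) and Scd1 (47.7 and 36.1), the first of which lay 45351 bp from its gene, at Pkd2l1. The carnitine palmitoyltransferase gene Cpt1a (43.7 and 39.4) came next. Its heart muscle form Cpt1b (25.8 and 10.6) and the cytosolic malate dehydrogenase gene Mdh1 (23.5 and 11.2) completed the leading 6. Of these 6 regions, that near Scd2 had a peak in both edKO hearts. Those near Elovl5, Scd1, Cpt1a and Cpt1b had one in edKO replicate 4 only, and the Mdh1 region had none. The Cpt1b region lay 263 bp outside Cpt1b, with Chkb as its nearest gene.

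Marker genes of the labelled tissue were checked in the same way. A shared region lay inside or within 50 kb of 9 of 10 cardiomyocyte markers, 4 of 8 adipocyte markers, 1 of 8 hepatocyte markers, 2 of 5 endothelial markers, 1 of 5 fibroblast markers and 2 of 4 macrophage markers, beside 32.4% of all genes. An edKO peak lay that near to 3 of the 10 cardiomyocyte markers, Myh6, Myh7 and Tnni3, and to 0 of the markers of each other cell type, beside 1.56% of all genes. A peak counted for every gene within 50 kb of it, here and in the pathway list, so neighbouring genes may share a peak. Binding near a marker gene is no measure of its transcript, and which cells carried the regions at the 9 genes was not tested.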

How the data were processed

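Each list holds the peaks of 1 heart, from its immunoprecipitate and input per the labels. Per the submitters' processing notes, cutadapt, BWA, SAMtools and MACS3 were used on mm10 (GRCm38); no source used here gives their versions or settings. Whether reads were paired is stated both ways in the labels. The deposited columns give the authors' fold enrichment, a ratio to the local background, the −log10 of p and of q that the authors deposited for each peak, a display score of 10 times the −log10 q, which was not used, and start, end and summit. Coordinates are printed 1-based.

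Peaks were assigned to the 21887 protein-coding genes of RefSeq GRCm38.p6 outside the mitochondrial genome, with all 9 members matched by symbol. Strand and annotated starts came from the RefSeq promoter table; distances to the 5′ end use the outer end of the gene. Exon positions were not used here. A WT replicate 4 peak joined its strongest overlapping WT replicate 3 peak, with 1 peak per heart in a region and the summit of WT replicate 3. Fragments at the summit and local background were solved from fold enrichment (pseudocount 1) and a Poisson −log10 p. In all lists 100% of values, rounded, were whole within 0.02 plus a small share of the fragment number. The immunoprecipitate was scaled by 0.967 in WT replicate 4 and 0.992 in edKO replicate 3. These scales were chosen to make the most values whole, so the 100% is partly built in. Intervals cover counting error only.

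Numbers of peaks were compared over hearts by exact permutation. Members, gene lists and the named genes (all 9 members, genes nearer to a member's strongest region, and the leading 6 of the pathway list) were chosen with earlier results of these data known. The repeat and the distance to annotated starts were added after seeing the data. Both genotypes use the heart numbers 3 and 4, and no label ties a number to a litter or a day. Steps were tested on simulated data. Python 3.11.15 with pandas 2.3.3 and scipy 1.17.1 was used. Alternatives covered distance, thresholds, overlap, nearest gene and left-out hearts.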

Additional observations from a re-analysis of the deposited data

How the results depend on the processing

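The difference in peak number between genotypes kept its sign at distances of 10, 1 and 100 kb, at stricter thresholds (−log10 q of at least 5, −log10 p of at least 10), with only the nearest gene counted and within 10 kb of an annotated start, and ranged from -47 to -9.5 peaks. Leaving out 1 heart at a time gave -45.5 to -17.5 peaks, with an exact permutation p of 0.667, the smallest possible there. With a replicate block over the heart numbers the difference was -31.5 (exact sign-flip permutation p = 0.5, the smallest 2 pairs allow); the labels do not show that the numbers pair the hearts. As a share of each list the difference reversed, to 5.94 percentage points, since 1 of 8 edKO replicate 3 peaks (12.5%, Clopper-Pearson 0.316 to 52.7%) lay at these genes, and 0 of 127 in edKO replicate 4 (Clopper-Pearson upper limit 2.86%), against 0.240% and 0.383% in WT replicates 3 and 4. All 9 genes, or 8 at 10 kb, at 1 kb and by nearest gene, or 6 near annotated starts, kept a shared region. Shared regions with no edKO peak numbered 11 at 1 kb, 10 by nearest gene and 7 near annotated starts, because fewer regions were counted, and from 17 to 45 with 1 heart left out, 45 being peaks of WT replicate 3 alone. The median of the 9 strongest regions was 20.1, and 9.84 without WT replicate 3 or 30.4 without WT replicate 4, and 26.9 with no pseudocount. The share of WT replicate 4 peaks that overlap WT replicate 3 was 88.9% when 50% of both peaks had to overlap and 96.6% at 100 kb. Counting of fragments limits the weaker regions, and 1 edKO peak carries every edKO value at these genes.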
